A study of Mus musculus with 6 samples.

Results

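Immunoglobulin variable (V) segments were examined in RNA-seq libraries of brain cells selected for CD11b in MRL/lpr and MRL/mpj mice. All rows of the gene count table whose symbols start with Ighv, Igkv or Iglv and that held at least 8 counts in at least 1 of the 6 libraries were taken, which gave 72 of the 348 such rows and of 55401 genes in all. They were 37 heavy chain segments on chromosome 12, 34 kappa segments on chromosome 6 and 1 lambda segment, Iglv1, on chromosome 16. The segments were thus chosen by their counts in these libraries, so their levels and strain differences are given as a description. The study asked how microglia differ between lupus-prone mice and their control strain, with 3 libraries per strain. MRL/lpr mice carry lpr, a loss-of-function mutation of the death receptor gene Fas, on the MRL background, and MRL/mpj mice share that background without lpr. All mice were 6 weeks old and untreated. The brains were perfused and digested, and the cells were enriched on Percoll and then with magnetic beads against CD11b, an integrin carried by microglia and by other myeloid cells. The study's text gives as many mice as libraries for each strain, and the labels do not tie a library to an animal. P-values measure the spread between these libraries, which may in part be technical.

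V segments encode most of the antigen-binding part of an antibody. In a developing B cell, recombination joins a heavy chain V segment to a D and a J segment, and a light chain V segment, kappa or lambda, to a J segment. The rearranged gene is then transcribed together with a constant region and is read most strongly in plasma cells, which secrete antibody. Microglia and other myeloid cells do not rearrange these loci. Mouse light chains are mostly kappa.

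The libraries held between 45481609 and 49846634 counts, of which V segments took 3590 to 4074 in MRL/lpr and 141 to 170 in MRL/mpj. Multiples of 4 were overrepresented among low counts. Over all genes and libraries, 7351 values were 4, against 2240 of 3 and 1421 of 5, and 4135 were 8, against 1388 of 7 and 992 of 9. Over the V rows, 16 values were 4, 4 were 3 and 4 were 5. What a count stands for in reads was not settled, so counts of 3 or fewer were taken as the floor and precision was also given on counts divided by 4. Levels were scaled to library size and TMM factors as CPM, on which 3 counts were between 0.0577 and 0.0718. The Fas row held 461, 282 and 298 counts in MRL/lpr and 426, 432 and 362 in MRL/mpj. Its log2 fold change was −0.06 (adjusted p = 0.887 by edgeR's quasi-likelihood test). The lpr mutation is an insertion in the gene, and its effect on a count summed over the gene was not tested. These counts therefore do not check the labels. MRL/lpr replicate 3 stood apart in the gene CT010467.1, which took 6.38% of its counts and 0.169% to 0.457% of those of the other libraries. Without this library, the log2 ratio of the summed V segments between strains was 4.12 for the heavy chain and 5.38 for kappa, beside 4.12 and 5.47 with it. In MRL/lpr replicate 2, the microglial gene Cx3cr1 held 132706 counts, while replicates 1 and 3 of that strain held 10645 and 10334 and MRL/mpj libraries 27912 to 29349. Without that library the V segment log2 ratios were 4.18 and 5.54. Microglial genes were abundant in all libraries, with 10 markers, Cx3cr1 included, summing to 22153 to 24682 CPM in MRL/lpr and 25502 to 26204 CPM in MRL/mpj.

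To show what the counts of single segments rest on, the V exons of 3 pairs of similar segments are printed in the 5′ to 3′ direction of the gene. The 9 to 13 bases at the 5′ end that are the same within a pair are left out. Aligned bases that differ within a pair are in capitals. Coordinates are those of the printed stretch. They are reference sequence (GENCODE M21, GRCm38), read from C57BL/6J, and the MRL alleles were not analysed here. Igkv1-117 (chr6:68121528-68121827, plus strand) and Igkv1-110 (chr6:68270968-68271267, plus strand) were the most abundant kappa segments of MRL/lpr, and 10 of the 313 bases of the exon differ.
Igkv1-117: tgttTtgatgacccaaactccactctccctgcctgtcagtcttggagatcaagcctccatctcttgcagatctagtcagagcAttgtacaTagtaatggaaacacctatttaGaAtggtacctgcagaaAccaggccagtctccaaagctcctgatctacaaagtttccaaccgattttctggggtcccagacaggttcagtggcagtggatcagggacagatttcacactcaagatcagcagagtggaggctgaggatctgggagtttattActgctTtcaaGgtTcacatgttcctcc
Igkv1-110: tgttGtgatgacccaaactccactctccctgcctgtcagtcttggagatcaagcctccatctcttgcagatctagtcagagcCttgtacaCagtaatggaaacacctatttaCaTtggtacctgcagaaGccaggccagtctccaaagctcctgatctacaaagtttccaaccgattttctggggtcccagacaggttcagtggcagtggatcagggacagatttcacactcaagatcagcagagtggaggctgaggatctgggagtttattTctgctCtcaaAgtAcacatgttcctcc
Ighv10-3 (chr12:114523441-114523740, minus strand) had counts only in MRL/mpj and Ighv10-1, of the same family (chr12:114479005-114479304, minus strand), only in MRL/lpr, with 10 of 313 bases differing.
Ighv10-3: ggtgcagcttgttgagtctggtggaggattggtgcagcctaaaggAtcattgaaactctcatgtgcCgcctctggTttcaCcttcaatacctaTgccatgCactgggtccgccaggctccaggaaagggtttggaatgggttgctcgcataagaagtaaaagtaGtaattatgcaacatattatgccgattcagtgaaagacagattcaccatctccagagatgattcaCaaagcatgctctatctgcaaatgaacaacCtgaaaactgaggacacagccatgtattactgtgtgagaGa
Ighv10-1: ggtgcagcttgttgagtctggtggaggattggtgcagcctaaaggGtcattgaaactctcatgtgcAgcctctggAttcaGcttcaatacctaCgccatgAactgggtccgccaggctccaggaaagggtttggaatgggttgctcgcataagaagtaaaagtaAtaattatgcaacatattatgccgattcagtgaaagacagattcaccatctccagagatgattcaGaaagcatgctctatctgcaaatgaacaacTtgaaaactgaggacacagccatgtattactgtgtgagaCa
Igkv4-72 (chr6:69226854-69227147, minus strand) had counts only in MRL/mpj. Igkv4-79 (chr6:69042972-69043271, minus strand), the most similar of the segments with MRL/lpr counts, had counts only in that strain. Igkv4-79 is 6 bases longer, and 19 of the 303 aligned bases differ. The 6 extra bases have no partner in Igkv4-72 and are printed in lower case.
Igkv4-72: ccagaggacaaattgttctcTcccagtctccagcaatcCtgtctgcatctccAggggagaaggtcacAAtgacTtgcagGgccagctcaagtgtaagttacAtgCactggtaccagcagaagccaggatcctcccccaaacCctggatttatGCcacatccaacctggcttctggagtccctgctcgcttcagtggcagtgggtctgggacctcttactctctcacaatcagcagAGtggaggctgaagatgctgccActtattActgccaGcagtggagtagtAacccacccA
Igkv4-79: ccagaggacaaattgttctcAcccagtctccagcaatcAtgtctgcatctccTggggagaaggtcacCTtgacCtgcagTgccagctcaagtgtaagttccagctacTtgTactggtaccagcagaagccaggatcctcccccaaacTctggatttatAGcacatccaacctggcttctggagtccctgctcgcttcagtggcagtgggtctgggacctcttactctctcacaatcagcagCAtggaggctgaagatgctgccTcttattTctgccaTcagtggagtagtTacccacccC
Across the 72 segments, the V exon of 43 was at least 95% identical to that of another V row of the annotation, and of 60 at least 90%, with a median identity of 96.0%. The counting tool is not given in the sources used here. Reads could therefore have been split between near copies, and counts of single segments are less certain than sums over a family or chain.

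V segment transcripts of each chain were higher in MRL/lpr. Heavy chain segments summed to 1602, 1340 and 1303 counts in MRL/lpr replicates 1 to 3 and to 89, 91 and 96 in MRL/mpj replicates 1 to 3. Kappa segments summed to 2442, 2238 and 2465 counts in MRL/lpr and to 58, 79 and 45 in MRL/mpj. Iglv1 held 30, 12 and 12 counts in MRL/lpr and was at 0 in each MRL/mpj library. No library of one strain overlapped the other in any chain. In CPM, the heavy chain sum was 31.2 ± 2.80 (SD, n = 3) in MRL/lpr and 1.80 ± 0.0595 (n = 3) in MRL/mpj, a 17.4-fold difference. The kappa sum was 52.8 ± 5.77 against 1.19 ± 0.362 CPM, a 44.3-fold difference. For lambda, the level was 0.393 ± 0.213 CPM in MRL/lpr, at least 6.70-fold above a floor of 3 counts per MRL/mpj library. These sums were not tested, because the segments had been chosen with results known and 3 libraries against 3 cannot give a p under 0.1 in an exact permutation test. In bulk RNA, more cells with rearranged genes and more transcript per cell cannot be told apart.

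**Figure D1:**
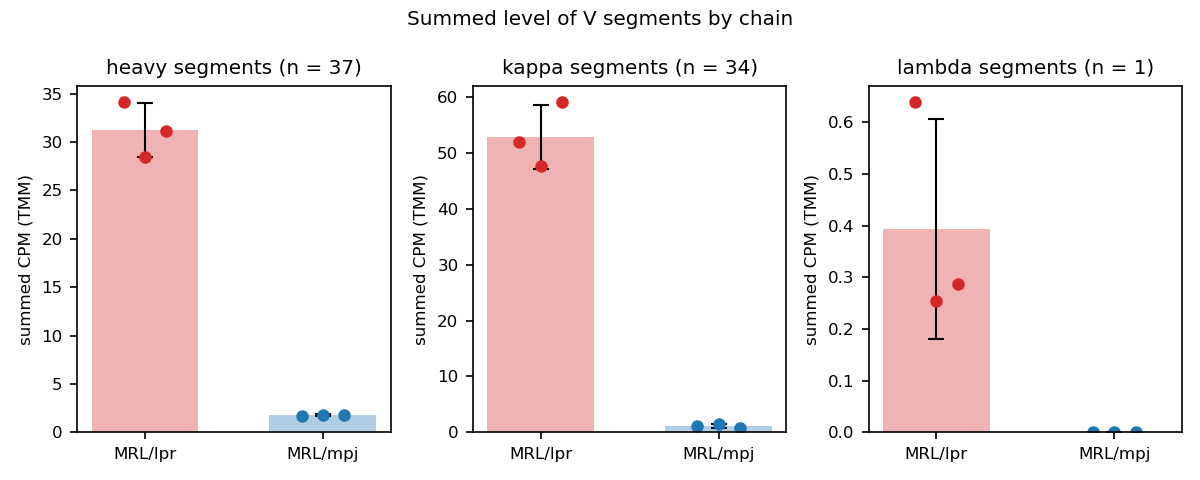
Summed level of heavy (37), kappa (34) and lambda (1) V segments in CPM scaled by TMM, for MRL/lpr and MRL/mpj. Points are the 3 libraries of a strain, bars their mean and whiskers the SD, and each panel has its own axis starting at 0. In each panel all MRL/lpr points lie above all MRL/mpj points.

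Kappa segments made up the larger part of V segment counts in MRL/lpr and the smaller part in MRL/mpj. Their share was 59.9% (95% Wilson interval 56.9% to 62.9%), 62.3% (59.1% to 65.5%) and 65.2% (62.1% to 68.2%) in the MRL/lpr libraries. In MRL/mpj it was 39.5% (24.1% to 53.9%), 46.5% (33.4% to 62.3%) and 31.9% (18.6% to 48.0%). The intervals were computed on counts divided by 4 and cover counting error only, and those of MRL/mpj are wide because they rest on 35 to 42 such units. The shares of the strains did not overlap, but the interval of MRL/mpj replicate 2 reached into those of MRL/lpr. The mean share was 62.5% ± 2.64 (SD, n = 3) against 39.3% ± 7.28 (n = 3), and the difference was not tested. Among light chain segments of MRL/lpr, Iglv1 took 1.21%, 0.533% and 0.484%. In MRL/mpj, 0 lambda counts among 35 to 42 units allow a lambda share of V segment counts of up to 7.14% to 8.57%, taking 3 units of the total as the limit (8.38% to 9.89% as the upper Wilson limit), so a lambda share like that of MRL/lpr was not detectable at this depth.

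Most segments were present in MRL/lpr and absent from MRL/mpj. Counts were found only in MRL/lpr for 60 of the 72 segments, only in MRL/mpj for 5 and in both strains for 7. Among all 24704 genes with at least 8 counts in 1 library, 3.45% were at 0 in each MRL/mpj library and 3.64% at 0 in each MRL/lpr library. In MRL/lpr, 53 segments had counts in all 3 libraries, 8 in 2 and 6 in 1. The combination of counts in all 3 MRL/lpr libraries with 0 in each MRL/mpj library was shown by 161 genes, 0.652% of those with at least 8 counts. V segments were 46 of these 161 genes (28.6%), which is 63.9% of the segments. The reverse combination was shown by 173 genes (0.7%), of which 3 were V segments. For the 58 segments at 0 in MRL/mpj with a mean above the floor in MRL/lpr, the lower bound of the fold difference ran from 1.45 to 175, with a median of 10.4. These bounds, and those of single genes below, hold for a floor of 3 deposited counts. With 3 units of counts divided by 4 as the floor, all would be smaller and the lowest would no longer show a difference. The 2 other such segments, Ighv1-5 and Igkv9-120, had counts in 1 library each.

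**Figure D2:**
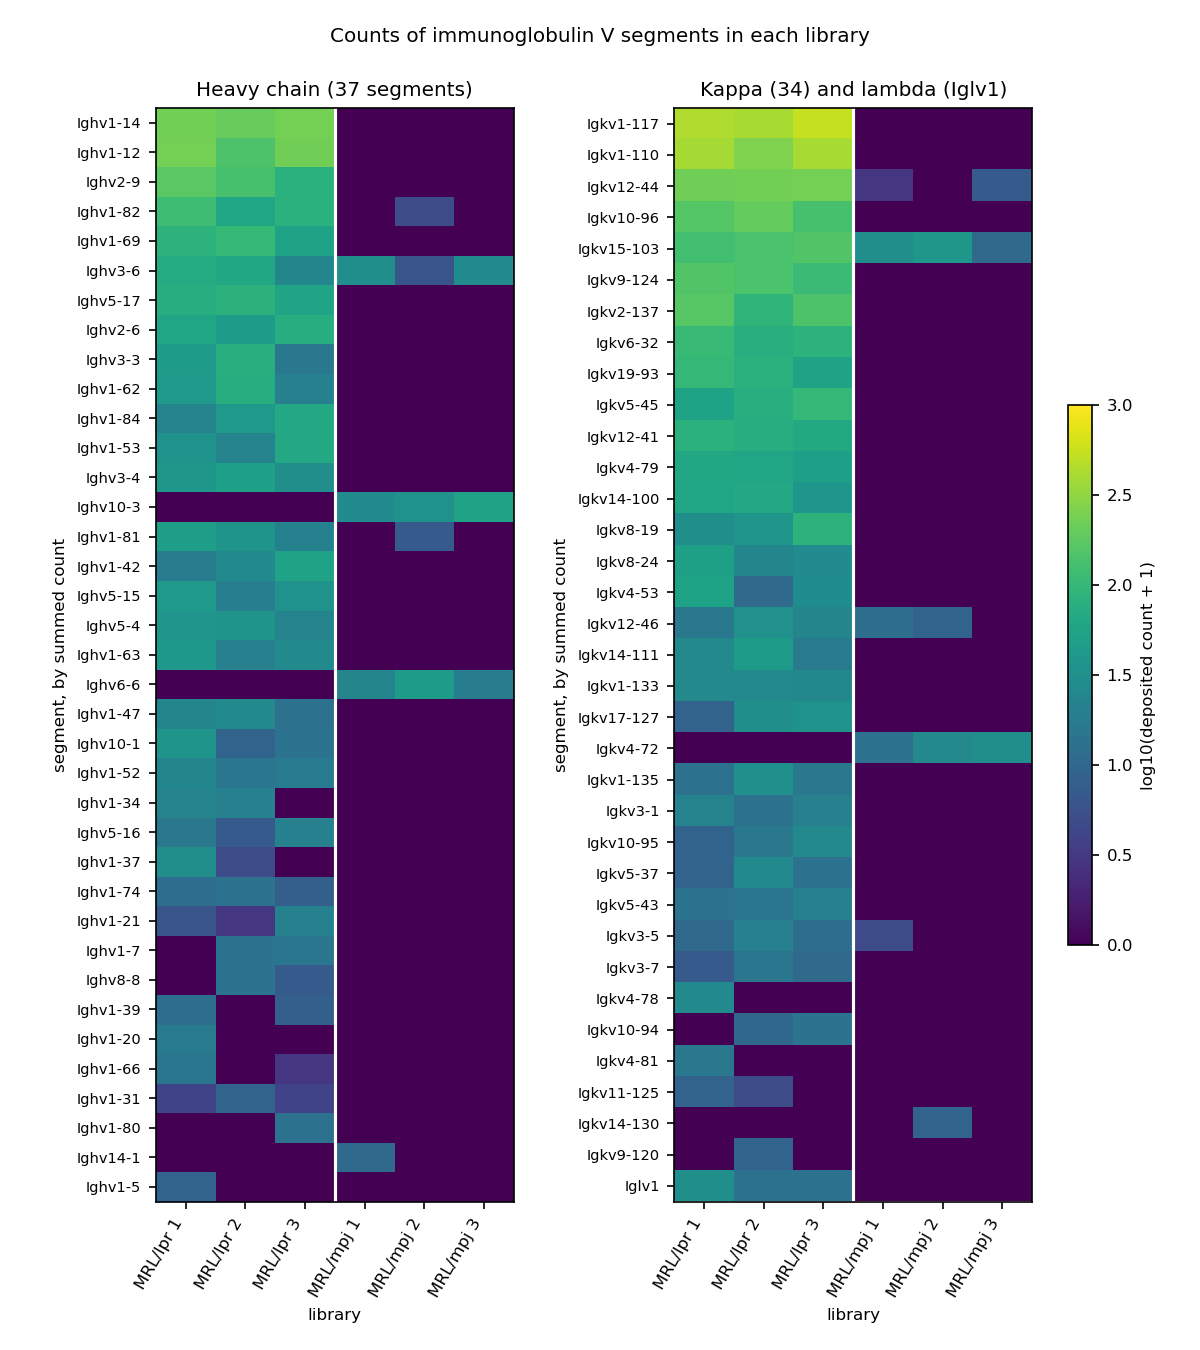
Deposited counts of the 37 heavy chain segments (left) and the 34 kappa segments with Iglv1 (right) in the 6 libraries, one row per segment in order of the summed count, coloured by log10(count + 1). The MRL/lpr columns are filled for most rows and the MRL/mpj columns are dark, apart from 12 segments with counts in MRL/mpj.

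Genes were tested across the whole table by edgeR's quasi-likelihood test, and called at a log2 fold change of 1 or more in size with a Benjamini-Hochberg adjusted p under 0.05. Of the 72 segments, 46 passed the filter on low counts. Of these, 40 were called higher in MRL/lpr and 3 lower, beside 4.67% and 3.66% of the 19554 genes tested. A segment at 0 in one strain passes the filter through the other strain and so has to differ, so nothing is read from these counts. The number called lower was 1 without MRL/mpj replicate 2. Of the 40 segments called higher, 36 were at 0 in each MRL/mpj library. By chain, 19 of 22 heavy chain segments tested were called higher and 2 lower, and 20 of 23 kappa segments were called higher and 1 lower. The libraries of the strains did not overlap for 42 segments higher and 3 lower in MRL/lpr, beside 19.6% and 19.4% of all genes tested. Of the 26 segments left out by the filter, 24 had counts only in MRL/lpr, each at 54 or fewer in any library, and 2 only in MRL/mpj. Between these strains, the median log2 fold change of all genes tested was −0.01.

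Among heavy chain segments, Ighv1-14 was the most abundant, with 226, 200 and 238 counts in MRL/lpr and 0 in each MRL/mpj library, a difference of at least 83.8-fold. The annotation classes Ighv1-14 as a pseudogene, and it lies on the minus strand of the heavy chain locus. Ighv1-12 held 237, 146 and 224 counts in MRL/lpr and 0 in MRL/mpj, at least 76.7-fold higher. Ighv2-9, of another family, held 168, 132 and 81 counts against 0, at least 47.2-fold higher. All 3 were thus seen in each MRL/lpr library, and in none of MRL/mpj. Ighv1-69 held 87, 101 and 53 counts against 0, at least 29.9-fold higher. For Ighv1-82 there were 116, 58 and 82 counts in MRL/lpr and 0, 4 and 0 in MRL/mpj, with a log2 fold change of 6.04 ± 0.92 (SE). Without MRL/mpj replicate 2 the segment is at 0 in MRL/mpj, and only a lower bound can be given. Ighv3-6 was the only heavy chain segment with at least 8 counts in a library of both strains. It held 70, 61 and 23 counts in MRL/lpr and 30, 5 and 27 in MRL/mpj, so the strains overlapped. Its log2 fold change of 1.47 ± 0.69 did not pass the test (adjusted p = 0.181).

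Of the kappa segments, Igkv1-117 led in each MRL/lpr library, with 440, 401 and 543 counts and 0 in each MRL/mpj library, a difference of at least 175-fold. Its near copy Igkv1-110, printed beside it above, held 389, 263 and 399 counts against 0, at least 133-fold higher. Per length, in FPKM, fragments scaled by gene length and depth, Igkv1-117 reached 21.7 ± 4.27 (SD, n = 3) and Igkv1-110 16.6 ± 3.92 in MRL/lpr. The spreads between libraries overlap, but within each MRL/lpr library Igkv1-117 was above Igkv1-110, a difference that was not tested. The most abundant heavy chain segment, Ighv1-14, reached 10.4 ± 1.24 FPKM. Igkv12-44 held 220, 229 and 234 counts in MRL/lpr and 2, 0 and 6 in MRL/mpj, with a log2 fold change of 6.53 ± 0.59. Its log2 fold change was 5.98 without MRL/mpj replicate 2 and 7.82 without MRL/mpj replicate 3. Igkv10-96 held 162, 196 and 132 counts against 0, at least 61.2-fold higher. Igkv15-103 had the most counts of any kappa segment in MRL/mpj. It held 123, 138 and 151 counts in MRL/lpr and 29, 38 and 10 in MRL/mpj, with a log2 fold change of 2.59 ± 0.47 (adjusted p = 0.00382), and the strains did not overlap. Igkv12-46 held 15, 32 and 22 counts in MRL/lpr and 11, 8 and 0 in MRL/mpj, and its log2 fold change of 2.01 ± 1.07 did not pass the test (adjusted p = 0.242). Igkv3-5, with 10, 19 and 11 counts against 4, 0 and 0, did not pass it either (log2 fold change 3.37 ± 1.36, adjusted p = 0.122).

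Iglv1, on the minus strand of the lambda locus, was the only one of 3 lambda rows to reach 8 counts. MRL/lpr replicate 1 held most of its counts, and the counts of the other MRL/lpr libraries were equal. Having passed the filter through MRL/lpr alone, it is given by its counts and bound, with no test. The lambda row Iglv3 stopped short of the minimum, with 6, 0 and 4 counts in MRL/lpr and 0 in MRL/mpj.

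A handful of segments ran the other way. Ighv10-3 was at 0 in each MRL/lpr library and held 27, 33 and 52 counts in MRL/mpj, at least 11.0-fold lower in MRL/lpr. Ighv10-1, which is 96.8% identical to it, showed the opposite pattern, with 35, 8 and 13 counts in MRL/lpr and 0 in MRL/mpj. The Ighv10 family as a whole was therefore present in all 6 libraries, through different rows in each strain. Ighv6-6 held 0 counts in MRL/lpr and 22, 43 and 17 in MRL/mpj, at least 8.10-fold lower in MRL/lpr. Igkv4-72 held 0 counts in MRL/lpr and 12, 25 and 29 in MRL/mpj, at least 6.48-fold lower. These 3 segments passed the filter through MRL/mpj alone and so had to differ, and their calls are not read as results. The other segments seen only in MRL/mpj were Ighv14-1, with 10 counts in replicate 1, and Igkv14-130, with 8 counts in replicate 2, and no fold is given for either.

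Grouped by family, the number after the chain name, the heavy chain counts of MRL/lpr came mostly from Ighv1. This family supplied 23 of the 37 segments and is the largest of the locus, with 93 of 185 rows. It held 1026, 817 and 934 counts in MRL/lpr and 0, 10 and 0 in MRL/mpj, and took 65.6% ± 5.51 (SD, n = 3) of the heavy chain counts of MRL/lpr. Ighv2 followed with 13.0% ± 1.12, Ighv5 with 10.3% ± 0.387 and Ighv3 with 9.45% ± 4.29. Ighv2 was above Ighv5 in each MRL/lpr library, while Ighv3 overlapped both. Ighv3 held 152, 184 and 67 counts in MRL/lpr and 30, 5 and 27 in MRL/mpj. The Ighv10 family held 35, 8 and 13 counts in MRL/lpr and 27, 33 and 52 in MRL/mpj. In MRL/mpj, heavy chain counts came from Ighv10, Ighv6 and Ighv3 in all 3 libraries, with Ighv14 in replicate 1 and Ighv1 in replicate 2.

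The kappa counts of MRL/lpr were spread over 15 families. Igkv1, with 4 of its 13 rows, held 866, 720 and 981 counts in MRL/lpr and 0 in each MRL/mpj library, and took 35.8% ± 3.82 of the kappa counts of MRL/lpr. Igkv12 followed with 13.6% ± 1.12, from 316, 334 and 321 counts in MRL/lpr against 13, 8 and 6 in MRL/mpj. Of these 2 families, only Igkv12 was thus found in both strains. Igkv10 took 7.90% ± 1.68 of the kappa counts of MRL/lpr, and the remaining 12 families took between 0.169% and 5.84% each on average. Igkv4 supplied the most kappa segments, 5 of its 33 rows, and held 155, 67 and 76 counts in MRL/lpr and 12, 25 and 29 in MRL/mpj, the latter all from Igkv4-72. In MRL/mpj, Igkv15, Igkv4 and Igkv12 were present in all 3 libraries. Their shares varied widely there, as for Igkv4 with 20.7%, 31.6% and 64.4%.

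**Figure D3:**
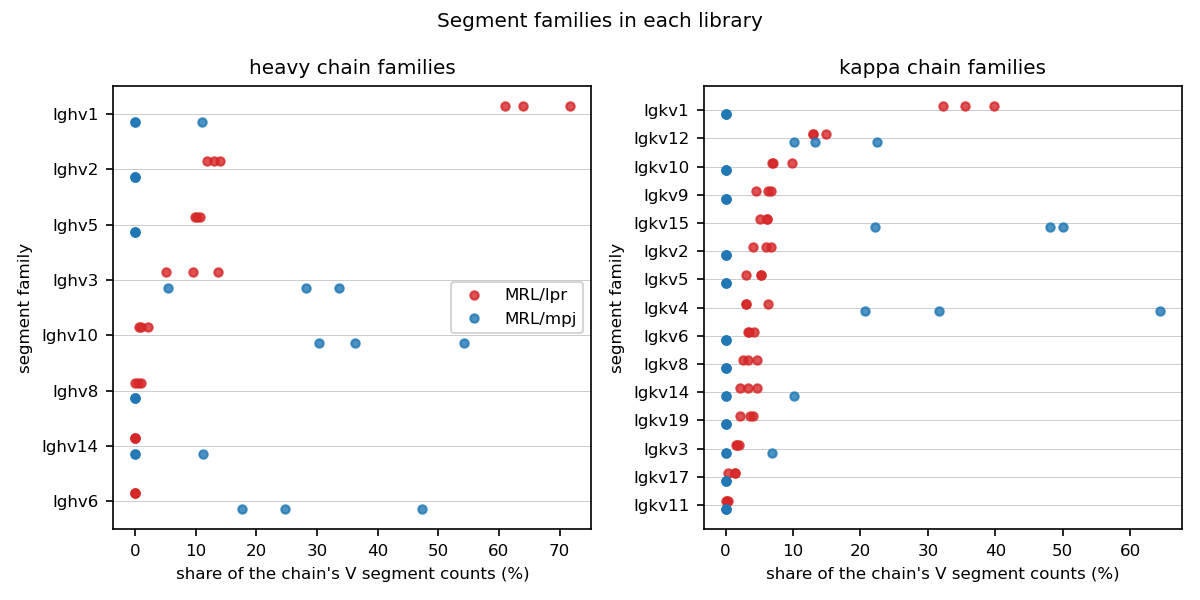
Share of each V segment family in the counts of its chain, in percent, for heavy chain families (left) and kappa families (right), with one point per library. Ighv1 lies between 61.0% and 71.7% and Igkv1 between 32.2% and 39.8% in MRL/lpr (red), while the MRL/mpj libraries (blue) hold most of their few counts in other families and differ more among themselves.

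Counts in MRL/lpr were spread over many segments. Between 29 and 31 heavy chain segments and between 28 and 30 kappa segments had counts in each MRL/lpr library, against 3 to 5 per chain in each MRL/mpj library. The leading heavy chain segment was Ighv1-12 in MRL/lpr replicate 1, with 14.8% of the heavy chain counts, and Ighv1-14 in replicates 2 and 3, with 14.9% and 18.3%. Igkv1-117 led the kappa counts of all 3, with 18.0%, 17.9% and 22.0%. The 5 leading segments of a library took 49.5% to 53.6% of the heavy chain counts and 55.0% to 59.8% of the kappa counts in MRL/lpr. The MRL/mpj libraries held 141 to 170 V segment counts each, against 3590 to 4074 in MRL/lpr. Numbers of segments and leading segments were not compared at equal depth, so no strain difference is read from them. In MRL/mpj the leading segment was not the same in each library. For the heavy chain it was Ighv3-6 in replicate 1, with 30 counts beside 27 of Ighv10-3, Ighv6-6 in replicate 2 and Ighv10-3 in replicate 3. For kappa it was Igkv15-103 in replicates 1 and 2 and Igkv4-72 in replicate 3.

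The same segments recurred among the MRL/lpr libraries, with differences in level. Pearson's r of log2(count + 1) was taken over all segments with counts in any MRL/lpr library, including those at 0 in both libraries of a pair. It was 0.683 for replicates 1 and 2, 0.657 for 1 and 3 and 0.826 for 2 and 3, as a description across segments that share libraries. The pairs were also compared over the segments with counts in either library (66, 66 and 63), after scaling to equal V segment totals. They differed by 1.59, 1.92 and 1.82 times the sampling noise of counts divided by 4 (chi-square per degree of freedom). This noise rests on the division by 4 and covers counting alone. Among the 22 segments with at least 150 counts over the MRL/lpr libraries, the coefficient of variation of CPM ran from 0.0527 to 0.688 with a median of 0.239. In this set, the highest MRL/lpr count of a segment was at most 3.04 times its lowest.

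T cell receptor V segments, which are rearranged in T cells, gave a comparison at low counts. Of 170 such rows, 10 reached 8 counts in 1 library, and the highest held 20. Counts were found only in MRL/lpr for 9 and only in MRL/mpj for 1. None of the 10 was present in all 3 MRL/lpr libraries, 2 were present in 2 and 7 in 1. Of the 20 immunoglobulin V segments with a highest count from 8 to 20, 7 were present in all 3 MRL/lpr libraries, 6 in 2 and 5 in 1. The difference between these receptor classes was not tested.

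V segments and constant regions were compared per length, since the constant regions were not used to choose the segments. In FPKM, kappa segments summed to 116, 107 and 124 in MRL/lpr, and Igkc, the kappa constant region, reached 98.6, 97.5 and 105. In MRL/mpj the same values were 2.66, 3.77 and 1.95 for kappa segments and 3.47, 2.55 and 2.83 for Igkc. The ratio of kappa V to Igkc thus lay between 1.10 and 1.18 in MRL/lpr and between 0.689 and 1.48 in MRL/mpj. Heavy chain segments summed to 78.7, 66.0 and 68.0 FPKM in MRL/lpr and to 4.40, 4.54 and 4.63 in MRL/mpj. The switched constant regions Ighg1, Ighg2b, Ighg2c, Ighg3 and Igha, those of IgG and IgA antibodies, summed to 50.6, 52.4 and 49.2 FPKM in MRL/lpr and to 1.46, 1.26 and 1.28 in MRL/mpj. Their ratio was 1.26 to 1.56 in MRL/lpr and 3.01 to 3.62 in MRL/mpj. Ighm, the IgM constant region, stood apart, with 189, 195 and 176 FPKM in MRL/lpr and 153, 163 and 153 in MRL/mpj.

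**Figure D4:**
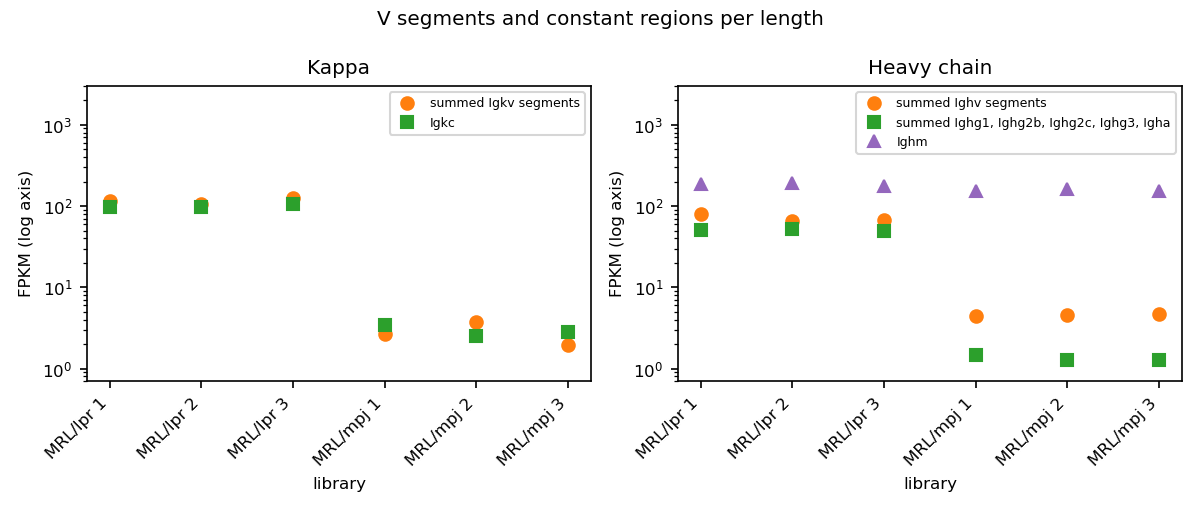
Summed V segments and constant regions in FPKM in each library, on a log axis, for kappa (left) and heavy chain (right). Kappa segments and Igkc lie close together in every library, heavy V segments lie with the switched constant regions in MRL/lpr, and Ighm stays between 153 and 195 FPKM in both strains.

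Most constant regions were higher in MRL/lpr as well. Of the 13 listed, 9 were tested, 7 were called higher in MRL/lpr and 0 lower by edgeR, with 9 higher and 0 lower at an unadjusted p under 0.05 and 8 and 0 called by DESeq2. Igkc held 2828, 2803 and 2837 counts in MRL/lpr and 103, 73 and 85 in MRL/mpj (log2 fold change 5.20, Benjamini-Hochberg adjusted p = 7.76e-08 by edgeR's quasi-likelihood test). Ighg1 held 2934, 2654 and 2747 counts in MRL/lpr and 0, 16 and 7 in MRL/mpj (log2 fold change 8.65, adjusted p = 0.000116). Ighg2c held 563, 593 and 391 counts against 0, at least 193-fold higher. It passed the filter through MRL/lpr alone and so had to differ, and its place among the 7 is not read as a result. Iglc2, of the lambda locus, held 37, 31 and 31 counts in MRL/lpr and 0, 7 and 5 in MRL/mpj (log2 fold change 3.17, adjusted p = 0.0465). Ighm and Ighd, the constant regions of naive B cells, had log2 fold changes of 0.37 (adjusted p = 0.00184) and 0.72 (adjusted p = 0.00273), below the minimum of 1. The median log2 fold change of the 9 was 4.30. Here and for the lists that follow, the median is the same with genes at 0 in one strain set to their lower bound. J segments, short exons joined to V, summed for the heavy chain to 349, 352 and 271 counts in MRL/lpr and to 124, 143 and 159 in MRL/mpj. For kappa they summed to 8, 5 and 11 against 0, 1 and 0.

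Among genes of antibody secretion, Jchain, which links IgA and IgM into polymers, held 647, 765 and 696 counts in MRL/lpr and 74, 72 and 42 in MRL/mpj (log2 fold change 3.66, adjusted p = 9.02e-06). Mzb1, an endoplasmic reticulum protein of plasma cells, held 25, 54 and 48 counts against 0, at least 16.1-fold higher. It passed the filter through MRL/lpr alone and so had to differ, and its call is not read as a result. Jchain and Mzb1 were the 2 called higher among 11 of 12 plasma cell genes tested, with 0 lower by edgeR and DESeq2. At an unadjusted p under 0.05, 5 were higher and 1 lower, and the median log2 fold change was 0.22. Of the others tested, Tnfrsf17 (log2 fold change −0.39), Irf4 (−0.23), Txndc5 (−0.12) and Sdc1 (−0.04) had negative values. Positive values were those of Derl3 (0.18), Xbp1 (0.22), Prdm1 (0.24), Fkbp11 (0.49) and Eaf2 (2.33), and none of these genes was called. Xbp1 and Prdm1 are also expressed by myeloid cells, and the part of any cell type in these values was not tested. Pou2af1, a B cell coactivator of immunoglobulin promoters, held 71, 83 and 60 counts against 16, 18 and 27 (log2 fold change 1.98, adjusted p = 0.00810). It was the 1 gene called among 5 of 6 B cell transcription factors tested, with 0 lower by edgeR and DESeq2 and 2 higher and 2 lower at an unadjusted p under 0.05 (median 0.20). The 2 lower were Ebf1 (log2 fold change −0.45, adjusted p = 0.00922 by edgeR) and Pou2f2 (−0.29, adjusted p = 0.0266), both under the minimum of 1 in size. Spib (0.20) and Bach2 (0.25) were not called either. Of 14 genes of the B cell receptor and surface, 10 were tested and edgeR called 0, with 3 higher and 1 lower at an unadjusted p under 0.05, 1 (Cd79a) called higher by DESeq2, and a median of 0.41. Cd79a, a signalling chain of the receptor, held 76, 63 and 56 counts in MRL/lpr and 12, 23 and 39 in MRL/mpj (log2 fold change 1.57, adjusted p = 0.0516). It did not pass the test by edgeR, although the libraries of the strains did not overlap. Of the other genes of this list tested, Cd79b (log2 fold change −0.30) and Blnk (−0.16) had negative values and the rest positive ones. Of 7 genes of the surrogate light chain and of recombination, which mark developing B cells, 1 was tested and 0 were called by edgeR or DESeq2, or passed an unadjusted p of 0.05. Rag1, Vpreb2 and Igll1 were at 0 in all 6 libraries.

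Markers of other cells moved between the strains too. Of 13 T cell genes, 10 were called higher in MRL/lpr and 0 lower (0 lower also at an unadjusted p under 0.05 and by DESeq2), with a median log2 fold change of 2.53 and sums of 29.7 to 38.7 CPM in MRL/lpr against 10.7 to 12.7 CPM in MRL/mpj. Among these 10, Cd8b1 was at 0 in each MRL/mpj library. It passed the filter through MRL/lpr alone, so its call is not read as a result. Of 8 choroid plexus genes, 7 were called lower and 0 higher (0 higher also at an unadjusted p under 0.05 and by DESeq2), with a median of −1.49 and sums of 359 to 369 CPM against 1075 to 1157 CPM. Of 6 erythrocyte genes, 1, Alas2, was called higher, with a median of 0.32 and sums of 686 to 1135 CPM against 612 to 675 CPM. Of 10 neutrophil genes, 0 were called by edgeR and DESeq2, although 7 were higher at an unadjusted p under 0.05, with a median of 0.35 and sums of 790 to 916 CPM against 639 to 710 CPM. Of 10 microglial genes, 1, Fcrls, was called lower, and the median was 0.01. The part of T cells, choroid plexus and blood in the V segment differences was not tested.

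In the annotation, 34 of the 113 heavy chain rows classed as genes reached 8 counts (30.1%) and 3 of the 72 classed as pseudogenes or otherwise (4.17%). For kappa, 34 of 100 genes reached 8 counts and 0 of 60 pseudogenes, all of which were at 0 in each library. The 3 pseudogene rows were Ighv1-14, Ighv1-62 and Ighv1-21, named after their values were seen, and they summed to 271, 275 and 277 counts in MRL/lpr and 0 in MRL/mpj. Ighv1-14 held most of these counts. The most similar row was Ighv1-83 for Ighv1-14 (90.8% identical), Ighv1-55 for Ighv1-62 (97.0%) and Ighv1-17 for Ighv1-21 (94.7%). The heavy chain segments spanned chr12:113597446-115981134, nearly the whole range of the Ighv rows, and all 37 lay on the minus strand. The kappa segments spanned chr6:67555497-70704177, the whole range of the Igkv rows, with 16 on the plus strand and 18 on the minus strand.

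Of the 5 segments at the minimum of 8 counts, Igkv9-120 held 0, 8 and 0 in MRL/lpr, and the other 4 were Ighv1-31, with 3, 8 and 3 counts in MRL/lpr, Ighv1-5, with 8, 0 and 0, Igkv11-125, with 8, 4 and 0, and Igkv14-130, seen only in MRL/mpj. Just outside were Ighv1-77, with 5, 2 and 7 counts in MRL/lpr, Iglv3, Ighv1-18, with 0, 0 and 4, and Ighv1-23, with 5 counts in MRL/mpj replicate 3. In all, 20 rows held 1 to 7 counts, and 256 of the 348 rows were at 0 in each library.

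The genes outside the segments whose pattern was most like that of Igkv1-117 over the 6 libraries, by Pearson's r of log2(CPM + 1), were Ifi27l2a, Zfp335 and Gab2. For Ighv1-14 they were Zfp335, Bbc3 and Gm26740, and for Iglv1 they were Tnnt3, Rfx5 and Plagl2. An r of at least 0.99 was reached by 212, 237 and 6 genes, respectively. These likenesses are a description over 6 libraries of 2 strains, so genes with a strain difference rank high.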

How the data were processed

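RNA of CD11b-selected brain cells was measured in 6 libraries, 3 per strain, grouped by the labels. Per gene, the authors deposited raw counts. The authors also deposited FPKM values per library. The submitters' processing notes name cutadapt 1.9.3, HISAT2 2.0.4, Cuffdiff 2.2.1, Cufflinks and the build GRCm38, and the methods name DESeq2. The counting tool and annotation are not given in the sources used here. The labels describe removal of ribosomal RNA, and the methods describe purification of mRNA. Symbols, coordinates and sequences came from GENCODE M21, which matched 55141 of 55401 identifiers. The segments, lists and tests were chosen with earlier results of these data known. Counts of all genes were filtered with filterByExpr (minimum count 10, minimum total 15), scaled by TMM and tested with the quasi-likelihood test of edgeR 4.0.16 in R 4.3.3, with robust dispersions and Benjamini-Hochberg adjustment. The steps were tested on simulated data. The floor was 3 counts in each library, scaled to CPM by depth, and lower bounds were computed against it. A floor of 3 units of counts divided by 4, as used for the lambda share, would give smaller bounds. Intervals for shares are 95% Wilson intervals, and a count of 0 was taken to allow 3. Alternatives were DESeq2 1.42.0, other scalings, filters and dispersions, counts divided by 4, a replicate block, other minimum counts and each library left out in turn. The named segments are the 5 most abundant per chain, those with at least 8 counts in a library of both strains, those higher in MRL/mpj, the 4 on each side of the minimum, and others whose values are given beside them (Ighv10-1, Igkv4-79, Igkv3-5 and Igkv9-120), which were chosen after their values were seen. The gene lists cover constant regions, B cells, recombination, plasma cells, T cells, neutrophils, erythrocytes, choroid plexus and microglia. A search of promoters for the octamer motif was planned and not run, because the promoter table used here holds no V segment. One gene of the B cell list is not reported here by name.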

Additional observations from a re-analysis of the deposited data

How the results depend on the processing

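Of the values that answer a comparison, 80 results under alternatives kept their direction and stayed near the reported value, and 7 moved. None reversed. These results include numbers of segments called, and most of those segments, at 0 in one strain, had to differ once past the filter. They also include sums over segments chosen by their counts, so the tally is not read as support. With counts divided by 4, 19 segments passed the filter, 19 were called higher and 0 lower, since fewer were tested (0 lower also at an unadjusted p under 0.05); DESeq2 called 50 higher and 3 lower. The replicate numbers did not pair the samples (correlations of deviations −0.0409, −0.0202 and −0.0325). With a replicate block, 1422 in place of 1630 genes were called, with 32 segments higher and 1 lower, Ighv10-3, and the cause was not tested. Leaving out 1 library gave 1398 to 1650 genes, 36 to 39 segments higher and 1 to 3 lower, with 1 lower without MRL/mpj replicate 2. The same omissions gave log2 ratios of 4.05 to 4.18 for the heavy chain sum, 5.29 to 5.73 for kappa and 2.21 to 2.98 for lambda against its floor, and a kappa share of 61.1% to 63.8%. The heavy chain log2 ratio of 4.12 was 3.81 without pseudogenes and 3.87 without the most abundant segment, both by construction. The kappa share of 62.5% in MRL/lpr was 67.4% without pseudogenes. Scaled by library size only, 766 genes were higher and 932 lower in place of 914 and 716, the median log2 fold change of all genes was −0.13, and 40 segments were higher and 3 lower. Over the 16 named segments that were in the fit, 208 values stayed on their side of the threshold and 10 lost the call. Those 10 were of Iglv1, Ighv6-6 and Igkv4-72, with the replicate block or without single libraries. Named segments at 0 in each library of a strain, which include Iglv1, Ighv6-6 and Igkv4-72, had to differ once they passed the filter. Their part of these numbers is therefore not read as support. A minimum of 4, 12 or 20 counts gave 86, 65 or 53 segments. No value could be had for lambda without its most abundant segment or for the kappa share with a block. Depth limits the MRL/mpj shares, which rest on 141 to 170 counts per library.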
